A study of Mus musculus with 5 samples.

Results

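Genes for the core spliceosome and for the SR splicing factors were examined in RNA-seq of mouse neural tubes. Members were chosen by a rule on the symbol, with earlier results of these data known. It took the Sm proteins and the other snRNP polypeptides (Snrpa to Snrpg, Snrnp), the LSm proteins, the SF3a and SF3b subunits, the PRPF proteins and the SRSF proteins. This rule found 62 of the 23284 gene symbols in the count tables. They comprised 7 Sm genes, 11 genes for proteins particular to 1 snRNP, 12 Lsm genes, 8 SF3 genes, 13 PRPF genes and 11 SR genes. All 62 passed the filter on low counts (CPM, the gene's reads scaled by the size of the library, above 1 in at least 2 samples), which 12703 genes passed.

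Neural tubes of embryos labelled E8.5 were compared between 2 EpoR-/- samples (EpoR-null) and 3 controls, 2 EpoR+/+ (wild type) and 1 EpoR+/- (heterozygote). The embryos were littermates from crosses of EpoR+/- mice, in which the erythropoietin receptor was absent, present on 1 allele or present on both in every cell. The sample titles write Epo where the genotype field writes EpoR, and the genotype field was followed. The tubes were freed by hand and with enzyme, and whether a sample held 1 embryo or several is not given in the sources used here, so the p-values measure the spread between these samples.

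The spliceosome removes introns from pre-mRNA. It is built from small nuclear ribonucleoproteins (snRNPs), each a small nuclear RNA wrapped in a ring of Sm proteins (LSm proteins for U6) and carrying its own set of proteins. U1 and U2 mark the ends of the intron, the U4/U6.U5 tri-snRNP then joins, and SR proteins bind exons and help the snRNPs choose sites. These genes are expressed in nearly every cell, and dividing neural progenitors hold much of their product.

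Reads counted on genes numbered 19316126 to 41169218 a sample, of which the members took 1.42% to 1.51%. Epor itself was covered by 57 and 68 reads in wild type tubes, by 11 in the heterozygote and by 7 and 19 without the receptor. The heterozygote thus lay between the EpoR-null samples, and the difference did not pass the test (log2 fold change -1.51 ± 0.76 SE, FDR = 0.28, edgeR exact test), so read number at this gene was a weak check of the labels. Neural progenitor markers summed to 1800 to 2081 CPM in the controls and to 1854 and 1566 CPM in the 2 EpoR-null samples. Markers of other cells varied more: 5 neuronal genes summed to 249 to 410 CPM in the controls against 805 and 196 CPM, and 6 primitive erythroid genes, of which Hba-a1 was at 0, to 43.2 to 1078 CPM against 1679 and 956 CPM. No marker passed FDR < 0.05 in any of the 9 lists, and the part of cell makeup in the results that follow was not tested. In such bulk samples fewer cells of a type and less RNA per cell cannot be told apart.

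Between EpoR-null and control neural tubes, Prpf8 and Snrnp200, the genes of large U5 proteins, were called lower. They stood at 70.4% and 71.0% of the control mean, and no member was called higher. The 19 Sm and Lsm genes, most of them short, had a median log2 fold change of 0.42 (16 positive), while the 21 SF3 and PRPF genes, mostly longer, had a median of -0.03 (8 positive). Of the 12703 genes tested, 7134 were positive. Fold changes were lower for longer transcripts, among the members as among all genes. Calls required p < 0.001 and FDR < 0.05 in the edgeR exact test, adjusted over all genes tested.

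By that rule 2 of 62 members (3.23%) were lower in EpoR-null samples, against 3.84% of all genes tested, and 0 were higher, against 0.929% of all genes. With FDR < 0.05 alone, 3 members were lower, where the share of all genes was 5.49%, and 2 were higher, where it was 1.81%. The third lower gene was Prpf4b and the higher genes were Lsm7 and Snrpg. At an unadjusted p under 0.05 the exact test gave 4 members lower (6.45%, against 11.9% of all genes) and 13 higher (21%, against 7.88%). For members called higher, DESeq2 gave 4, where it called 1041 of 12703 genes in either direction. At FDR < 0.05 alone DESeq2 gave 6 of 62 members higher, where 533 of 12703 genes were higher. It gave 4 members lower, where 1129 genes were lower. The quasi-likelihood test of edgeR gave 0 members and 0 genes in all. Without any 1 of the 3 controls, 0 members passed FDR < 0.05 in the exact test, with 8, 10 and 13 at an unadjusted p under 0.05 when wild type replicate 1, wild type replicate 2 or the heterozygote was left out. Both EpoR-null samples lay below all 3 controls for 11 members (17.7%), against 22.1% of all genes, and above all 3 for 22 members (35.5%), against 21.2%. The other 29 members overlapped.

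**Figure D1:**
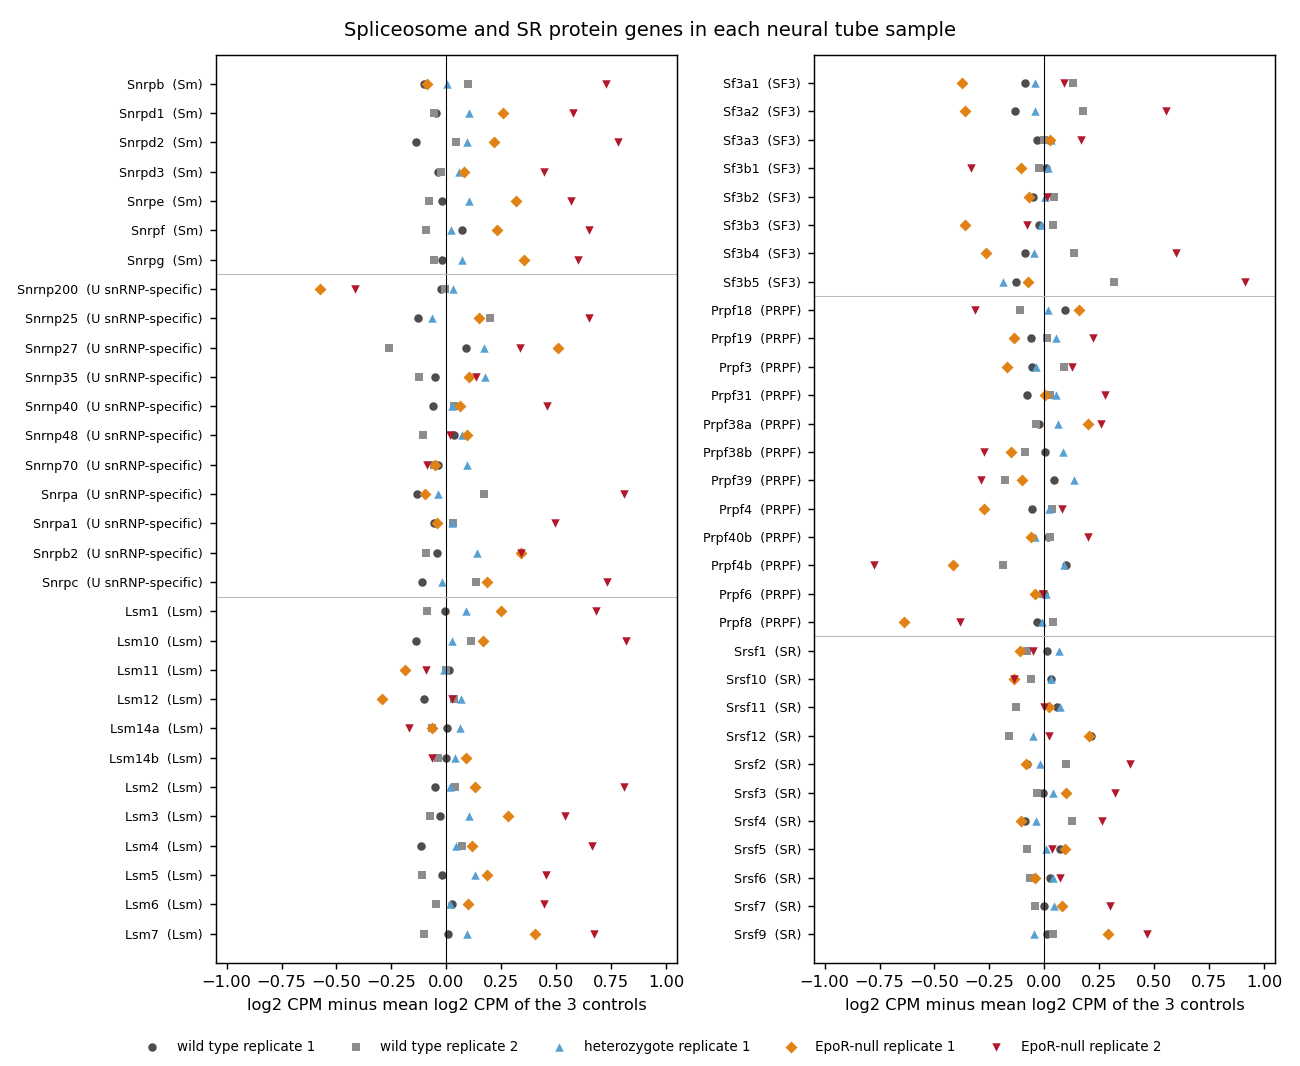
Each row is 1 of the 61 member genes drawn, and each point is 1 sample, placed on the x axis by its log2 CPM minus the mean log2 CPM of the 3 controls. Grey and blue points (controls) are centred on 0 by this scale. Both EpoR-null samples lie to the right of the controls for 22 members and to the left for 10. EpoR-null replicate 2 (red) lies to the right of replicate 1 (orange) in 48.

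The U5 snRNP had the lowest median of the member groups with at least 3 genes (log2 fold change -0.26, 4 genes). Prpf8, the scaffold that holds the active site, stood at 781, 822 and 793 CPM in wild type replicates 1 and 2 and the heterozygote, and at 512 and 612 CPM in EpoR-null replicates 1 and 2. The groups did not overlap, and the controls spanned far less than the gap to the EpoR-null samples. Prpf8 fell by 0.51 on the log2 scale (SE 0.15, FDR = 0.0205, edgeR exact test). Snrnp200, the helicase that unwinds U4 from U6, gave 461, 467 and 478 CPM in the same order of controls, against 314 and 351 CPM. It fell by 0.49 on the log2 scale (SE 0.14, FDR = 0.0123, edgeR exact test), again with no overlap. Both have long transcripts, of 7442 and 6745 bases.

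The other U5 members were not called. Snrnp40, a WD-repeat protein of the same particle with a transcript of 1584 bases, had a log2 fold change of 0.28 ± 0.17 (SE). Prpf6, the bridge between U5 and U4/U6, read 129 to 134 CPM in all 5 samples (log2 fold change -0.02 ± 0.13 SE). The calls for Prpf8 and Snrnp200 depended on the samples and the test: leaving out either wild type replicate, the heterozygote or EpoR-null replicate 1 ended both, with FDR values as high as 0.298 and 0.272, while the log2 fold changes stayed between -0.64 and -0.39 for Prpf8 and between -0.58 and -0.42 for Snrnp200. The edgeR quasi-likelihood test ended both as well (FDR = 0.0841 and 0.0724). Once transcript length and GC content were entered as offsets in an edgeR likelihood-ratio fit, their log2 fold changes were -0.09 and -0.12, with an FDR of 1 for each.

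Prpf4b, a kinase that phosphorylates PRPF proteins before the spliceosome is activated, had the longest transcript of the members, 7844 bases. It gave 240, 197 and 238 CPM in the controls and 168 and 131 CPM in the EpoR-null samples, which did not overlap. The log2 fold change was -0.59 ± 0.19 (SE, FDR = 0.0329, edgeR exact test), short of the p threshold. With length and GC offsets it was -0.08 (FDR = 1, edgeR likelihood-ratio fit).

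**Figure D2:**
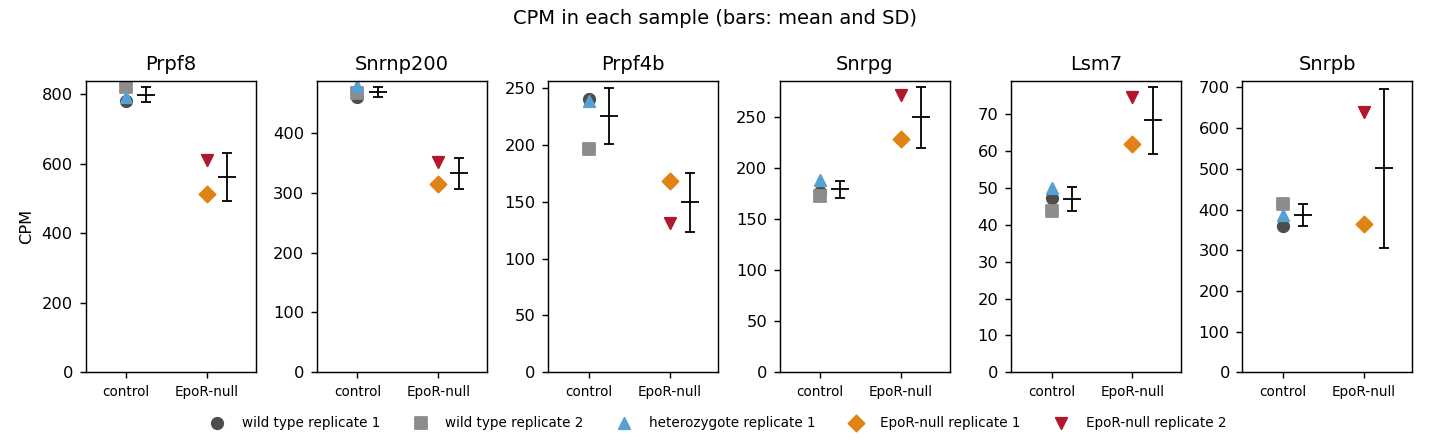
CPM (y axis, from 0) of 6 members, 1 panel each, with each sample as a point and the mean and SD of the 3 controls and the 2 EpoR-null samples as bars. Prpf8, Snrnp200 and Prpf4b lie lower and Snrpg and Lsm7 higher in both EpoR-null samples, whereas Snrpb is high in EpoR-null replicate 2 only, at 639 CPM.

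The Sm genes encode the ring of 7 proteins shared by U1, U2, U4 and U5. All 7 had positive log2 fold changes, 0.27 (Snrpd3) to 0.52 (Snrpd2), with a median of 0.44. Among all genes, 94.3% of those under 1 kb, 91.4% of those of 1 to 2 kb and 41% of those of 3 to 5 kb were positive. Snrpb became negative without EpoR-null replicate 2 (-0.09) and with length and GC offsets (-0.05). In 6 of 7 both EpoR-null samples were above every control, against 21.2% of all genes, 65.8% of those under 1 kb and 47.5% of those of 1 to 2 kb, and none was called. Snrpg came closest, with 177, 173 and 189 CPM in the controls and 229 and 272 CPM in the EpoR-null samples. Its log2 fold change was 0.48 ± 0.15 (SE, p = 0.00138, FDR = 0.0259, edgeR exact test), and 0.16 with length and GC offsets (FDR = 1).

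Snrpe read 173, 166 and 188 CPM in the controls against 218 and 259 CPM, and Snrpd1 read 157, 156 and 174 CPM against 194 and 242 CPM. Neither overlapped, and their FDR values were 0.054 and 0.0937 (edgeR exact test). Snrpd2 had the highest fold change of the ring, with 144, 163 and 169 CPM against 184 and 272 CPM, but a wide error (0.52 ± 0.22 SE, FDR = 0.119). Snrpb was the exception to the pattern. It gave 359, 414 and 387 CPM in the controls, 364 CPM in EpoR-null replicate 1 and 639 CPM in replicate 2, so the groups overlapped and replicate 2 alone was high.

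Counts of Snrpf were uncertain. Of the 65-base windows of its transcripts 87.5% also occur in transcripts of other genes, and 85.4% of its exon bases overlap 4933408J17Rik and Ccdc38, where HTSeq leaves out reads it cannot assign (its strand setting is not given in the sources used here). These shares come from GENCODE on GRCm38, not from the annotation behind the mm9 counts. Its level per length in the controls was 15.8 CPM per kb, against 349 CPM per kb for Snrpe, which shares 25.7% of its windows. Whether reads of Snrpf were lost was not tested.

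The LSm2 to LSm7 proteins form the matching ring on U6 RNA. Their 6 genes all had positive fold changes, with a median of 0.42, where 94.3% of all genes under 1 kb were positive. All 6 had both EpoR-null samples above the controls. Among all genes, 21.2% lay so, and 65.8% of those under 1 kb. With length and GC offsets 5 of them were positive, but with small values (Lsm7 0.08, Lsm2 0.05, FDR = 1 for each in the edgeR likelihood-ratio fit). Lsm7 gave 47.1, 43.7 and 50.02 CPM in the controls and 61.9 and 74.7 CPM in the EpoR-null samples. The log2 fold change was 0.54 ± 0.17 (SE, p = 0.00114, FDR = 0.0226, edgeR exact test), the highest of the 62. Its reads were uncertain, as 60.6% of its 65-base windows occur in transcripts of other genes. Lsm2 read 76.5, 81.6 and 80.2 CPM against 86.9 and 139 CPM, so that most of its fold change (0.51 ± 0.23 SE, FDR = 0.162) came from replicate 2. Lsm8, which completes the nuclear ring, has no row under that symbol.

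The remaining 6 Lsm genes, which have other partners, had a median of -0.05. Lsm1, which replaces LSm8 in the cytoplasmic ring of mRNA decay, had a fold change of 0.48 ± 0.22 (SE, FDR = 0.176, edgeR exact test). Lsm10, of the U7 snRNP of histone mRNA processing, had one of 0.53 ± 0.32 (SE, FDR = 0.36, same test). For each, both EpoR-null samples lay above the controls. Among all genes, 21.9% of those of 2 to 3 kb (Lsm1, 2663 bases) and 65.8% of those under 1 kb (Lsm10, 943 bases) lay so. Lsm11, the partner of Lsm10 in U7, had a long transcript of 6453 bases and the lowest fold change of the Lsm genes (-0.14 ± 0.18 SE). It read 25.6 to 26.03 CPM in the controls against 22.7 and 24.2 CPM. Lsm12, Lsm14a and Lsm14b lay between -0.13 and 0.01.

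The U1-specific genes showed no common direction. Snrnp70, which binds the first stem-loop of U1 RNA, gave 384, 379 and 421 CPM in the controls and 381 and 371 CPM in the EpoR-null samples, which overlapped (log2 fold change -0.07 ± 0.14 SE). With length and GC offsets it was -0.37 (FDR = 0.683, edgeR likelihood-ratio fit). Snrpc, which steadies U1 at the 5′ splice site, read 87.0, 103 and 92.7 CPM against 107 and 156 CPM (0.48 ± 0.21 SE, FDR = 0.15). Snrpa, the U1 protein that binds the second stem-loop, was at 141 CPM in EpoR-null replicate 1, within the controls, and at 265 CPM in replicate 2.

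The U2 genes, whose products hold the branch point, had a median of 0.13 (10 genes), and none passed the test. Sf3b1, the clamp around the branch helix, read 552, 540 and 555 CPM in the controls against 509 and 435 CPM. The values did not overlap, but the fold change of -0.22 ± 0.15 (SE) had an FDR of 0.434, and with length and GC offsets it was 0.17. Sf3a1 lay at 358, 416 and 369 CPM against 293 and 404 CPM, so that EpoR-null replicate 1 was below and replicate 2 within the controls. Sf3b5, a small subunit of SF3b, had the highest fold change of the SF3 genes (0.49 ± 0.34 SE), but 52.0 CPM in replicate 1 lay within the controls (48.1 to 68.3 CPM) and 103 CPM in replicate 2 did not.

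Genes of the U4/U6 particle (Prpf3, Prpf4 and Prpf31) had fold changes of -0.09 to 0.15, and Prpf19, the ubiquitin ligase that leads the Prp19 complex, of 0.05. Prpf38a, which enters with the precatalytic complex, was the highest of the PRPF genes. It gave 89.2, 88.2 and 94.7 CPM against 104 and 109 CPM (log2 fold change 0.23 ± 0.13 SE, FDR = 0.31), with no overlap. In the minor spliceosome, Snrnp25, Snrnp35 and Snrnp48 had fold changes of 0.41, 0.12 and 0.06, and for each of them at least 1 EpoR-null value lay within the controls.

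SR protein genes differed little. Of 11 genes, 9 had a positive log2 fold change, beside 7134 of the 12703 genes tested and 71.8% of those of 2 to 3 kb. The median was 0.09, and 0 were called, with 1 at an unadjusted p under 0.05 (edgeR exact test). Srsf1, the splicing factor first known as ASF, read 1111, 1042 and 1154 CPM in the controls and 1020 and 1063 CPM in the EpoR-null samples, which overlapped. Srsf2, which binds exonic enhancers, overlapped too, at 676, 764 and 705 CPM against 674 and 936 CPM. Srsf3, a small SR protein, gave 1003, 983 and 1034 CPM against 1079 and 1256 CPM, above every control (0.21 ± 0.15 SE, FDR = 0.432).

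Srsf9 had the highest fold change of the class (0.38 ± 0.14 SE, p = 0.00501, FDR = 0.0625, edgeR exact test). Its values were 112, 114 and 108 CPM against 136 and 154 CPM. Srsf10, a splicing repressor when dephosphorylated, had the lowest (-0.14 ± 0.13 SE), at 406, 380 and 406 CPM against 361 CPM in both EpoR-null samples. With length and GC offsets the signs of Srsf9 (-0.02) and Srsf10 (0.02) turned. Reads of Srsf4 were also uncertain, since 64.4% of its 65-base windows occur in transcripts of other genes.

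**Figure D3:**
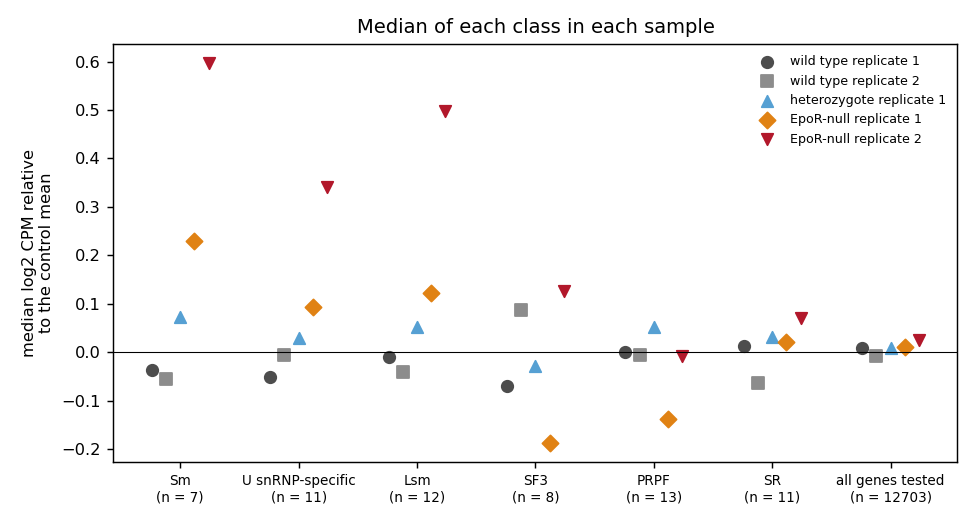
Median over the members of each class (x axis, number of genes below the name) of log2 CPM relative to the control mean (y axis), 1 point a sample. The Sm, U snRNP-specific and Lsm medians are highest in EpoR-null replicate 2, followed by replicate 1, the SF3 and PRPF medians are lowest in EpoR-null replicate 1, and the median of all genes tested stays near 0 in all 5 samples.

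The contrast of short against long members was larger than the spread among controls in each EpoR-null sample. The median of the 19 Sm and Lsm genes, relative to the control mean, was -0.02, -0.04 and 0.06 in wild type replicates 1 and 2 and the heterozygote, and 0.17 and 0.58 in EpoR-null replicates 1 and 2 (log2). That of the 21 SF3 and PRPF genes was -0.03, 0.03 and 0.02 in the controls and -0.14 and 0.08 in the EpoR-null samples. Short minus long was therefore 0.01, -0.07 and 0.04 in the controls (SD 0.06), and 0.30 and 0.49 in the EpoR-null samples. The difference had the same sign in both, while the long genes alone did not: they lay below the controls in replicate 1 and above them in replicate 2. With length and GC offsets the difference of the medians of fold changes was 0.12.

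Fold change was lower for longer members. Spearman's rho between log2 fold change and length was -0.81 over the 62 members and -0.64 over the 12584 tested genes with a length, given as descriptions over genes that share the same 5 libraries. With coding length in place of transcript length it was -0.83 over the members. Below 1 kb, 12 of 12 members were positive, as were 94.3% of the 733 genes of that length, with medians of 0.43 and 0.47. From 1 to 2 kb the medians were 0.23 (15 members) and 0.31, from 2 to 3 kb 0.11 (13 members) and 0.12, and from 3 to 5 kb -0.03 (14 members) and -0.06. Above 5 kb none of 8 members and 15.9% of all genes that long were positive, with a median of -0.36 for each.

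Overlap between groups also varied with length. Of members under 1 kb, 11 of 12 had both EpoR-null samples above the controls, where 65.8% of all genes that short did. From 1 to 2 kb 5 of 15 did, where 47.5% of genes did, and the difference between members and other genes was not tested. Over 5 kb, 6 of 8 members lay below the controls, where 56.5% of genes did, and 15.6% of genes that long were called lower. Among all genes, those under 1 kb lay 0.30 and 0.59 above the controls in EpoR-null replicates 1 and 2, and those over 5 kb 0.26 and 0.54 below (medians, log2). What made fold change vary with length was not tested.

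**Figure D4:**
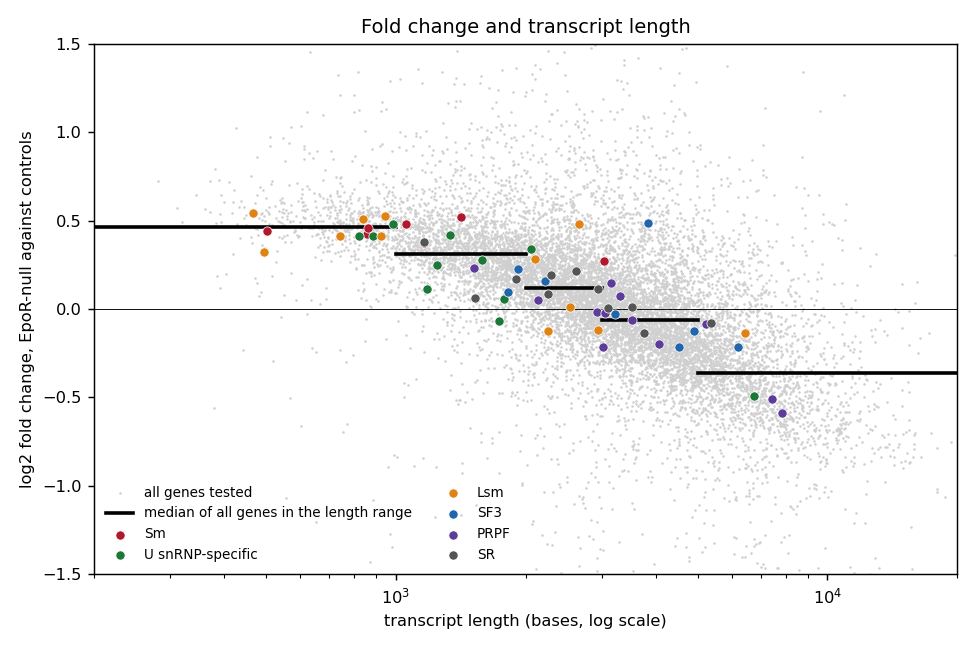
Log2 fold change, EpoR-null against controls (y axis), by transcript length in bases (x axis, log scale). Each grey point is a gene tested, coloured points are 61 members by class, and black bars are medians of all genes in 5 length ranges, from 0.47 below 1 kb to -0.36 above 5 kb. Most coloured points lie near the bars, with Sf3b5, Lsm1 and Snrpd3 well above and Snrnp70 well below the bar of their length. Sf3b5, Lsm1 and Snrpd3 have coding lengths of 258, 399 and 378 bases in transcripts of 3841, 2663 and 3036. Genes beyond ±1.5 are not drawn.

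The 2 EpoR-null samples differed from each other more for some members than from the controls. Replicate 2 exceeded replicate 1 in 48 members (77.4%), against 49.2% of all genes, and the excess was over 0.8 (log2) for Snrpb, Sf3b4, Snrpa, Sf3a2 and Sf3b5. A difference over 0.8 in either direction was found in 8.06% of members and in 16.1% of all genes. Replicate 2 was the lower one by 0.47 for Prpf18. The GC content of the transcript ran with this difference (rho 0.53 over members, 0.28 over all genes), and with that between wild type replicates 2 and 1 (rho 0.69 and 0.46), as descriptions. Without EpoR-null replicate 1 the median log2 fold change of the Sm and Lsm genes was 0.57, in place of 0.42. Without EpoR-null replicate 2 it was 0.16.

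Levels of the members themselves spanned a wide range. Per length, the controls' means were highest for Srsf3 (384 CPM per kb) and Srsf2 (376 CPM per kb), whose control values overlapped at 376 to 395 and 356 to 402 CPM per kb. Snrpe and Snrpb followed at 349 and 333 CPM per kb, and they too overlapped. Srsf5, Prpf19 and Snrnp70 came next at 239, 236 and 228 CPM per kb. The lowest was Srsf12 at 0.52 CPM per kb, the single member near the filter, followed by Lsm11 at 4.0 CPM per kb. Within SF3b, Sf3b2 stood at 187 and Sf3b5 at 14.4 CPM per kb. The value of Sf3b5 depends on a transcript taken as 3841 bases, of which 258 are coding.

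Promoter sequence was read for the members because groups of them had like fold changes, from RefSeq starts on GRCm38.p6, 250 bases before to 50 after the start. The table held 62 such windows for 52 members. Searched on both strands, the core of the NRF1 motif, GCATGCGC, occurred in 5 of these windows (8.06%, against 2.71% of all 32851 windows), an ETS core, CCGGAAGT, in 13 (21% against 3.89%), a YY1 core, AAGATGGC, in 4 (6.45% against 2.75%) and TATAAA in 5 (8.06% against 13.6%). Some genes have several starts a few bases apart, so that windows share letters: by gene, 5, 11, 3 and 5 of the 52 members held the NRF1, ETS, YY1 and TATAAA letters, among them 3 of 6 SF3 genes with the ETS core. A match is a description of letters, not a site that is bound. The 32851 windows were not matched to those of the members for GC content. Whether the shares differ from those of other GC-rich windows was not tested. The windows below are those of Prpf8, which was called and held none of the 4 motifs, Prpf4b, which held the ETS core at position -71 from the start, Lsm7, which held the YY1 core, and Snrnp70, which held the NRF1 core in 4 places and was not called. Capitals mark the motif.
Prpf8 (GRCm38.p6 chr11:75486527-75486826, plus strand): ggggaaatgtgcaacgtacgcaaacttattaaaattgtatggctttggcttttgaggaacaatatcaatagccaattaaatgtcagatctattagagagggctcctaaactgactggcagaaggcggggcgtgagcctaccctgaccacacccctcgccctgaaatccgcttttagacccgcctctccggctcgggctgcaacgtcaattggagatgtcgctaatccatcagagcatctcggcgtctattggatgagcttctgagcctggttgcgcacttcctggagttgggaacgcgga
Prpf4b (GRCm38.p6 chr13:34875279-34875578, plus strand): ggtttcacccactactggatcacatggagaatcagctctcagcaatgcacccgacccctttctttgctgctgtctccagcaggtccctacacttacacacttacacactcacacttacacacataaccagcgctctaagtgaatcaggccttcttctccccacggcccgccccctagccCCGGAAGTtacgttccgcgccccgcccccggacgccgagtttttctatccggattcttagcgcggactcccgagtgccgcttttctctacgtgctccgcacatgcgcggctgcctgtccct
Lsm7 (GRCm38.p6 chr10:80855107-80855406, minus strand): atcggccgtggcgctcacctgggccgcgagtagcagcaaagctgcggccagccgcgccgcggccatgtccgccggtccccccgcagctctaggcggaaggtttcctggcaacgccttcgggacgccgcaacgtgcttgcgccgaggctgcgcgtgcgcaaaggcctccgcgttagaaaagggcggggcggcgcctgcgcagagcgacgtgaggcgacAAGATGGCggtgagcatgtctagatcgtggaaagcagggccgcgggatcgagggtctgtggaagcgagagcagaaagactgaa
Snrnp70 (GRCm38.p6 chr7:45395693-45395992, minus strand): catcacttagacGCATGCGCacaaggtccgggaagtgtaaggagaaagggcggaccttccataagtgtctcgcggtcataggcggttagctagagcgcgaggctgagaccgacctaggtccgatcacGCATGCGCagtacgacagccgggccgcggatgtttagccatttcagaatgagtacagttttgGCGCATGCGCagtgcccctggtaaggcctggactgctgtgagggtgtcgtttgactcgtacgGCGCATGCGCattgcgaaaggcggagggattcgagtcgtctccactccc

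Lsm2, Lsm10, Srsf7 and Srsf11 held the NRF1 core as well. Their fold changes ran from 0.01 (Srsf11) to 0.53 (Lsm10), and that of Snrnp70 was -0.07.

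Other genes of the splicing pathway were counted in 8 lists covering further U2 and 3′ splice site factors, the tri-snRNP, the Prp19 complex, SR-related proteins and kinases, hnRNPs, snRNP assembly, the minor spliceosome and the exon junction complex with nonsense-mediated decay. Of 174 tested genes, 4 were called lower (2.3%, against 3.84% of all genes) and 0 higher, with a median log2 fold change of 0.00. With FDR < 0.05 alone 7 were lower (4.02%, against 5.49%) and 1 higher (0.575%, against 1.81%; edgeR exact test). Srrm2 and Son, large proteins of nuclear speckles, fell by 0.78 and 0.73 on the log2 scale. Srrm2 read 993, 988 and 1010 CPM in the controls against 569 and 594 CPM, a gap far beyond the spread of either group.

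Scaf11, an SR-related protein, fell by 0.56 and Smg1, the kinase of nonsense-mediated decay, by 0.87, and these 4 had transcripts of 8864 (Srrm2), 8399 (Son), 5766 (Scaf11) and 15557 (Smg1) bases. Bud31, a short gene (867 bases) of the catalytic spliceosome, was the higher one at FDR < 0.05 (log2 fold change 0.42 ± 0.14 SE, FDR = 0.033, edgeR exact test). Of 48 hnRNP and splicing regulator genes 0 passed either threshold, with a median of -0.06, and the 20 snRNP assembly genes had a median of 0.12.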

How the data were processed

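RNA-seq of poly(A)-selected RNA from 5 neural tube samples was analysed. The authors' processing notes give Trimmomatic 0.32 for trimming, TopHat2 2.1.0 with mm9 for alignment and HTSeq 0.6.1 for counting, and the authors deposited raw counts, 1 table a sample (the methods name hg19 and give E9.0 as the age). HTSeq leaves out reads that align to several places or overlap several genes. Its summary lines (no feature, 8.11% to 11.0%, and ambiguous, 1.84% to 2.31%) were not used as genes. Tests used edgeR 4.0.16 under R 4.3.3: TMM, tagwise dispersions and exactTest of EpoR-null against the 3 controls, Benjamini-Hochberg adjustment, for genes with CPM above 1 in at least 2 samples. Calls by this exact test took the study's thresholds, p < 0.001 and FDR < 0.05. SEs come from the negative binomial information, and log2 CPM used a prior count of 2. CPM values printed use TMM-adjusted library sizes. Alternatives were DESeq2 1.42.0, the quasi-likelihood test with and without a replicate block, the likelihood-ratio test with and without length and GC offsets, other scalings, other filters, FDR alone and leaving out each sample. The fits were tested on simulated data. Lengths are those of principal transcripts of GENCODE on GRCm38, and no coordinates were converted. The values named per sample are those of members called, a core list and the extremes of each class, plus Prpf4b, Lsm7, Snrpf, Snrpa and other members chosen after their values were seen. The values of 1 member, which the counts and medians include, are not reported here. The members and lists were chosen with earlier results of these data known.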

Additional observations from a re-analysis of the deposited data

How the results depend on the processing

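Of 336 values for 24 named members under 14 alternatives, 291 kept direction and side of the threshold, 14 lost and 19 gained a call, and 12 changed sign. Only Prpf8 and Snrnp200 were called in the main exact test, so the 14 lost calls were all theirs. Most of the 291 belonged to members called neither there nor in the alternative. Genes called numbered 606 in all. They numbered 0 by the edgeR quasi-likelihood F-test (lowest FDR 0.059, 3052 genes and 19 members at unadjusted p under 0.05), 1041 by DESeq2, 928 with FDR < 0.05 alone, 177 with length and GC offsets, and 115 to 2296 with 1 sample left out. At FDR < 0.05 the likelihood-ratio test gave 153 genes lower and 24 higher with the offsets and 719 and 235 without them, and the exact test 698 and 230. Members called lower numbered 0 by the quasi-likelihood test and with offsets, and 0 to 2 with 1 sample left out. Members called higher numbered 4 by DESeq2, 1 with at least 10 reads in every sample, 2 with FDR < 0.05 alone, and 0 to 18 with 1 sample left out.

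Among the fits with 1 sample left out, genes called and members called higher were most numerous without EpoR-null replicate 1. There EpoR-null replicate 2 alone was compared with the controls, so no spread between EpoR-null samples entered the fit. Those counts therefore cannot show whether members differed from other genes. The median of Sm and Lsm genes was 0.081 with offsets and 0.158 to 0.574 with 1 sample left out. That of SF3 and PRPF genes was -0.078 with library size only, -0.065 without the filter and -0.142 to 0.081 with 1 sample left out. Their difference was 0.121 with offsets and 0.300 to 0.501 with 1 sample left out. Offsets reversed the log2 fold changes of Lsm11 (0.207), Sf3a1 (0.088), Sf3b1 (0.172), Snrpb (-0.05), Srsf1 (0.272), Srsf2 (-0.02), Srsf9 (-0.015) and Srsf10 (0.024). With 1 sample left out, the log2 fold change ran from -0.379 to 0.084 for Sf3a1 (reversed without EpoR-null replicate 1), and, reversed without EpoR-null replicate 2, from -0.099 to 0.894 for Sf3b5, from -0.092 to 0.724 for Snrpb and from -0.086 to 0.388 for Srsf2. Apart from fewer samples, the cause was not tested.

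Replicate numbers 1 and 2 occur in both genotypes, but the labels do not say what they mark. The difference between the wild type replicates and that between the EpoR-null replicates correlated across 12703 genes (r = 0.43). With the replicate block in the quasi-likelihood fit 291 genes and 1 member (Prpf4b, lower) were called. In that edgeR fit Prpf8 and Snrnp200 missed the p threshold, with FDR values of 0.0479 and 0.0496. Depth of at least 19316126 reads was least informative for Srsf12, the member with the lowest level.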
